A study of Rattus norvegicus with 6 samples.

Results

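Marker genes of the thalamus were followed in brain RNA of 6 sedentary male rats, 15 weeks old, whose background strain was Wistar. Of these, 3 were SPORTS rats, a hyperactive mutant line, and 3 were wild type rats, and each rat gave 1 single-colour Agilent array. The labels name the tissue only as brain, without a region, and total RNA was used, so that fewer cells of a type and less RNA per cell cannot be told apart. The marker set was Tcf7l2, Lef1, Gbx2, Prkcd, Tnnt1, Ramp3, Rora, Slc17a6 and Ntng1. Probes were assigned through their transcript accession, which gave 10 probes for 7 of these 9 genes, out of 30367 probes for 15168 named genes and further unnamed transcripts. Tcf7l2 and Rora were not matched to a probe by the accession list used and were not analysed here.

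The thalamus relays sensory and motor signals to the cortex through excitatory neurons that load glutamate into vesicles with the transporter VGLUT2, the product of Slc17a6. Thalamic relay neurons arise from a progenitor field marked by the homeobox gene Gbx2, and in the adult they keep the Wnt-pathway transcription factors of the TCF and LEF family, which act with beta-catenin. In rodent brain several further transcripts are concentrated in thalamic nuclei, among them Prkcd, which encodes protein kinase C delta, and Ntng1, which encodes the adhesion protein netrin-G1 of thalamocortical axons. None of these genes is exclusive to the thalamus. Slc17a6 in particular is also used by glutamatergic neurons of hypothalamus, midbrain and hindbrain.

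Signals are given as log2 values relative to the 75th percentile of the array, which is 0 on this scale, and a positive difference means a higher signal in SPORTS. The 75th percentile of the processed signal lay between 1530 and 1578 on SPORTS arrays and between 1577 and 1628 on wild type arrays. Between 20323 and 22722 probes were well above background on a SPORTS array and between 20626 and 23261 on a wild type array, and no spot was saturated. A probe was tested if every array of SPORTS, of wild type or of both groups showed it well above background. This held for 20658 probes, of which 9 belonged to the marker genes. All 6 arrays shared 1 slide and 1 scan time. However, wild type replicates 1 and 2 lay in row 1 of the slide and the other 4 arrays in row 2. The fit was therefore also run with the slide row blocked, which is called the row-blocked fit here. Row 1 held no SPORTS array, so the difference in that fit sets SPORTS against wild type replicate 3 alone. Wild type replicates 1 and 2 add only to its estimate of spread. A call kept or lost in the row-blocked fit therefore rests on 1 wild type array for its difference. Nothing in the labels gives more on the origin of the rats, and the p-values measure the spread between these samples.

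Of the 6 marker genes that could be tested, Tnnt1 fell and Slc17a6 rose in SPORTS brain, and 4 did not pass. Tnnt1 was 3.04-fold lower by its brighter probe, and Slc17a6 was 1.87-fold higher. Lef1, Ntng1, Prkcd and Ramp3 had differences between -0.22 and 0.31 by their brightest probes. The median difference of the 6 genes was 0.14, against 0.01 over the 11033 genes tested. In limma's moderated test with Benjamini-Hochberg adjustment over all tested probes, 3 of the 9 marker probes passed at 0.05, against 21.1% of all tested probes. Of these 1 was higher, the Slc17a6 probe, against 11.1% of all tested probes, and 2 were lower, both of Tnnt1, against 10.1%. In the row-blocked fit 0 of the 9 were called higher, against 3.59%, and 2 lower, against 4.14%. By genes, 1 of the 6 was called in that fit, against 8.34% of all genes. The groups did not overlap on the same count of marker probes, 3 of 9, against 41.9% of all tested probes. With 6 genes tested, these counts are not read as a result about the set.

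The promoter stretches of the genes that passed are shown because both genes belong to 1 marker set and moved in opposite directions. The sequences are the 250 bases before the annotated start in RefSeq on GRCr8, 5′ to 3′. That of Tnnt1 lies at chr1:78348785-78349034 and that of Slc17a6 at chr1:110348197-110348446, both on the plus strand, and capitals mark motif matches.
Tnnt1: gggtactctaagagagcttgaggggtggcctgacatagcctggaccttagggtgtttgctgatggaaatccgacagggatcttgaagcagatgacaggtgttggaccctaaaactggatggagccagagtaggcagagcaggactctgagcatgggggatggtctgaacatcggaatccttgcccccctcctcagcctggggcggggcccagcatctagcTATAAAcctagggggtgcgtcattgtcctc
Slc17a6: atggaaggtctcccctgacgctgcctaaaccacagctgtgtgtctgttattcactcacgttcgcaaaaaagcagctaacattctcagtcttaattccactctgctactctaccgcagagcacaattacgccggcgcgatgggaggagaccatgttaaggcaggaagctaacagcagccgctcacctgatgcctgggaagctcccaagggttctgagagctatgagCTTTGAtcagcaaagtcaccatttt
Searched on both strands were the TCF/LEF core CTTTGA, the ROR half-site AGGTCA, the homeobox core TAATTA and the TATA box TATAAA, and no matches overlapped in these stretches. The Tnnt1 stretch held 1 TATA box, which began 30 bases before the start, and none of the other motifs. In the Slc17a6 stretch 1 TCF/LEF core was found, beginning 25 bases before the start. Among 33469 promoter stretches of this length, 12.9% held the TATA box and 13.9% the TCF/LEF core, while 14.1% held the ROR half-site and 4.86% the homeobox core. A match describes these letters only.

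Tnnt1 encodes the slow skeletal muscle form of troponin T and serves as a thalamic marker in rodent brain. Its brighter probe, A_64_P058869, was at -1.55, -1.47 and -1.50 in SPORTS replicates 1 to 3, against 0.22, 0.03 and 0.04 in wild type replicates 1 to 3. Every SPORTS array was therefore far below every wild type array, and the spread within the SPORTS group was small. Before scaling, the processed signal of this probe was 538, 569 and 541 in SPORTS and 1840, 1656 and 1628 in wild type. The difference was -1.60 ± 0.06 (SE; limma adjusted p = 0.000137; 95% interval -1.76 to -1.45), and the probe ranked 147 among tested probes by size of difference.

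The other Tnnt1 probe, A_64_P058871, was at -3.36, -3.35 and -3.28 in SPORTS, against -1.16, -1.44 and -1.41 in wild type. The groups were again far apart. This probe fell by 1.99 on the log2 scale (SE 0.08; limma adjusted p = 0.000143), which is 3.98-fold. This probe has 1 spot per array, while A_64_P058869 has 2, whose SD on an array was at most 0.04. In the row-blocked fit the differences were -1.54 ± 0.09 and -1.92 ± 0.12 (SE; limma adjusted p = 0.00335 and 0.00370), so both probes kept their call, and 7.73% of all tested probes were called.

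Slc17a6 had signals of 1.89, 2.03 and 2.13 in SPORTS replicates 1 to 3, against 0.82, 1.39 and 1.13 in wild type replicates 1 to 3. All SPORTS arrays were above all wild type arrays, with wild type replicate 1 the lowest. Its processed signal was 5852, 6427 and 6702 in SPORTS and 2779, 4269 and 3464 in wild type, from 9 spots with an SD of 0.03 to 0.05 on an array. The gene rose by 0.91 ± 0.15 (SE; limma adjusted p = 0.0116; 95% interval 0.53 to 1.28). The row-blocked fit gave nearly the same size, 0.89 ± 0.23, but the call was lost (limma adjusted p = 0.0964). Without SPORTS replicate 2 the call was also lost, at 0.90 (limma adjusted p = 0.0534). The vesicular transporter of cortical glutamatergic neurons, Slc17a7, did not pass, at -0.09 ± 0.11 (limma adjusted p = 0.608), and Slc17a8 was not well above background on any array.

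Marker genes of midbrain, hindbrain and hypothalamus, where VGLUT2 is also used, went both ways beside Slc17a6. These genes were listed as markers of the regions, not of the VGLUT2 neurons in them, whose own change they do not show. Of 6 tested midbrain and hindbrain genes 2 rose and none fell, against 12.9% and 11.4% of all genes. Their median difference was 1.29. It was 0.70 with normexp background correction, 0.89 in the row-blocked fit and 0.86 without wild type replicate 1. Over probes well above background on all arrays it was 0.86, which leaves out Slc6a4 and Slc6a3. These genes were tested through SPORTS alone, being well above background on 0 and 2 of 3 wild type arrays, and they count in the sums below. Of 8 tested hypothalamic genes none rose and 2 fell, against the same shares, with a median of -0.75. That median was -1.12 in the row-blocked fit, -0.49 with normexp and -0.46 without SPORTS replicate 1. Avp, the vasopressin gene, kept its call in the row-blocked fit and Nkx2-1 did not (limma adjusted p = 0.00467 and 0.118). The hindbrain genes that rose were Slc6a5, the neuronal glycine transporter gene, by 1.17 ± 0.18 and Tph2, the enzyme gene of brain serotonin synthesis, by 1.48 ± 0.23 (SE; limma adjusted p = 0.00897 and 0.00888). Neither passed in the row-blocked fit (limma adjusted p = 0.0863 and 0.0592). Hoxb3, of the same list, was not well above background on any array. Summed on a linear scale, with each array's 75th percentile set to 1, the list's level was 2.88 to 3.78 in SPORTS and 1.43 to 2.64 in wild type. Th, the tyrosine hydroxylase gene of dopamine neurons, made up 84.2% to 89.6% of that sum in SPORTS and 90.1% to 92.5% in wild type, and it did not pass (0.56 ± 0.28, limma adjusted p = 0.217). Without Th the sum was 0.39 to 0.46 in SPORTS and 0.14 to 0.21 in wild type. Wild type replicate 1, lowest for Slc17a6, was the lowest wild type array for 5 of the 6 genes, against 41.2% of all tested probes. This was not particular to that list. In lists described here or below, it was lowest for 8 of 8 hypothalamic, 6 of 7 reticular and 5 of 7 habenular genes. It was lowest for 5 of 16 further thalamic, 4 of 13 Wnt pathway and 3 of 8 cerebellar genes. Relatives of the marker genes had 3 of 12, cortical and hippocampal genes 1 of 6 and striatal genes 0 of 11. The part of midbrain, hindbrain and hypothalamus in the Slc17a6 result was not tested.

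**Figure D1:**
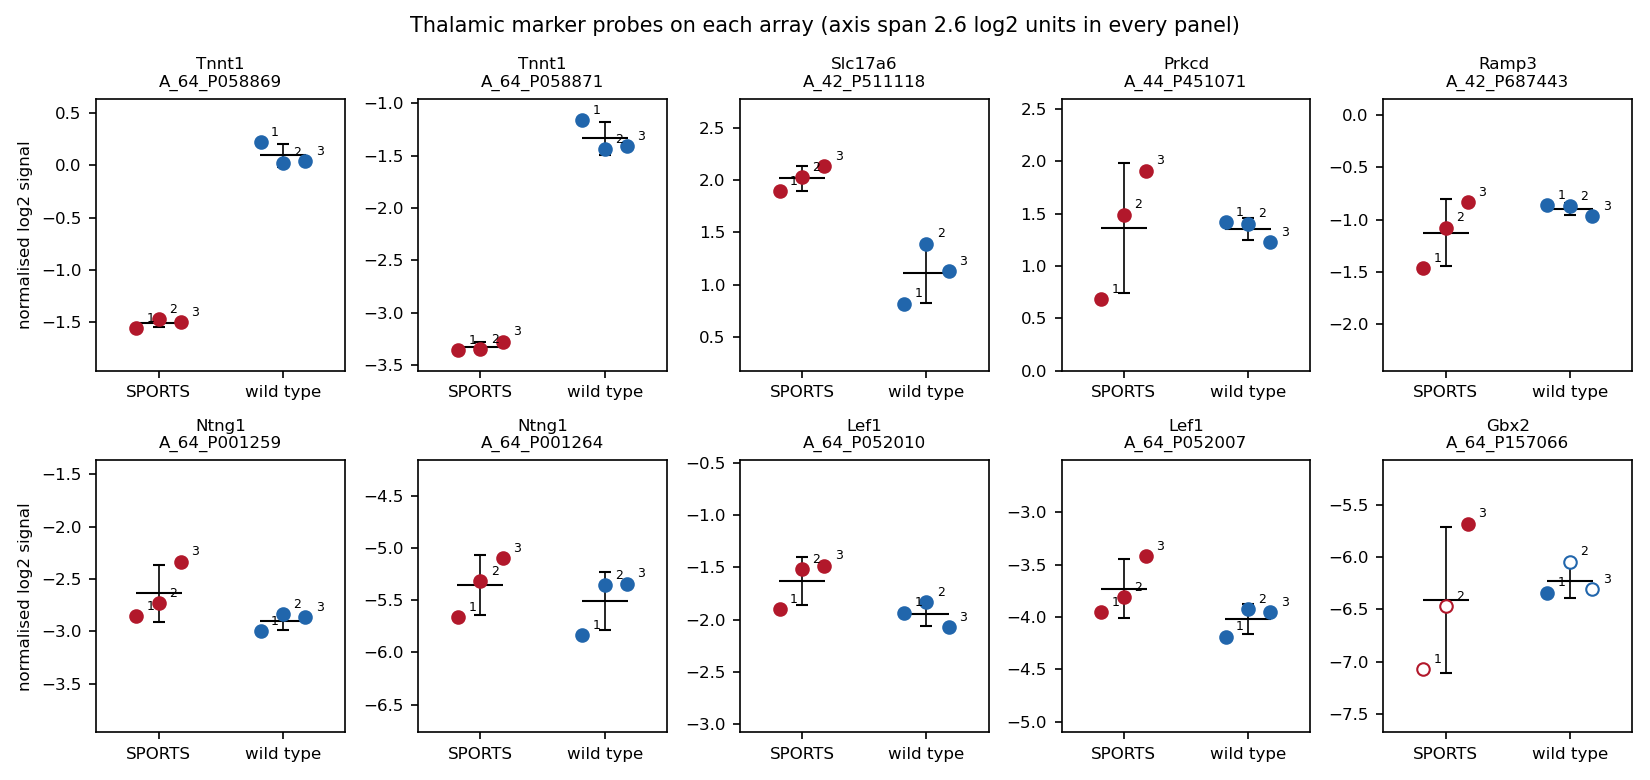
Normalised log2 signal of each of the 10 thalamic marker probes on each array, SPORTS left and wild type right, numbered by replicate; open points were not well above background, bars are mean ± SD (n = 3). Tnnt1 separates downward in SPORTS and Slc17a6 upward, while the other probes overlap.

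Of the transcription factor genes of the set only Lef1 could be tested, and it did not pass. Lef1, a DNA-binding partner of beta-catenin, had signals of -1.90, -1.52 and -1.48 in SPORTS, against -1.93, -1.83 and -2.07 in wild type, by its brighter probe A_64_P052010. SPORTS replicate 1 lay among the wild type values and the other SPORTS arrays above them. The difference was 0.31 ± 0.13 (SE; limma adjusted p = 0.146; 95% interval -0.002 to 0.63). Without SPORTS replicate 1 it was 0.44 and passed (limma adjusted p = 0.0314). The dimmer Lef1 probe, A_64_P052007, differed by 0.29 ± 0.15 (limma adjusted p = 0.237) and did not pass there either.

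Gbx2, the homeobox gene of the developing thalamus, was near background in these adult brains. Its probe was at -7.07, -6.47 and -5.68 in SPORTS, against -6.34, -6.04 and -6.30 in wild type. It was well above background only on SPORTS replicate 3 and wild type replicate 1, and its 2 spots differed on an array with an SD of up to 0.84. Gbx2 was left out of the test.

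Prkcd, whose kinase is abundant in relay neurons, had signals of 0.68, 1.49 and 1.91 in SPORTS, against 1.42, 1.41 and 1.23 in wild type. The SPORTS values lay on both sides of a narrow wild type range. The means were 1.36 ± 0.62 in SPORTS and 1.35 ± 0.11 in wild type (SD, n = 3 each), and the difference was 0.01 ± 0.30 (SE; limma adjusted p = 0.987; 95% interval -0.74 to 0.76). On each array 10 spots measured Prkcd with an SD of 0.07 to 0.09, much less than the gap of 1.23 between SPORTS replicates 3 and 1.

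Ramp3 encodes a receptor activity-modifying protein, which combines with the calcitonin receptor or its relative to form amylin and adrenomedullin receptors. Its signals were -1.46, -1.08 and -0.83 in SPORTS, against -0.86, -0.87 and -0.96 in wild type. SPORTS replicates 1 and 2 were below all wild type arrays and replicate 3 above them. The difference of -0.22 ± 0.16 did not pass (SE; limma adjusted p = 0.375; 95% interval -0.61 to 0.16).

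Ntng1 had signals of -2.85, -2.73 and -2.33 in SPORTS, against -2.998, -2.84 and -2.86 in wild type, by its brighter probe A_64_P001259. SPORTS replicates 2 and 3 lay above the wild type range and replicate 1 within it. The difference of 0.26 ± 0.14 did not pass (SE; limma adjusted p = 0.246; 95% interval -0.08 to 0.60). Its dimmer probe, A_64_P001264, differed by 0.15 ± 0.19 (limma adjusted p = 0.629), and by -0.015 in the row-blocked fit.

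**Figure D2:**
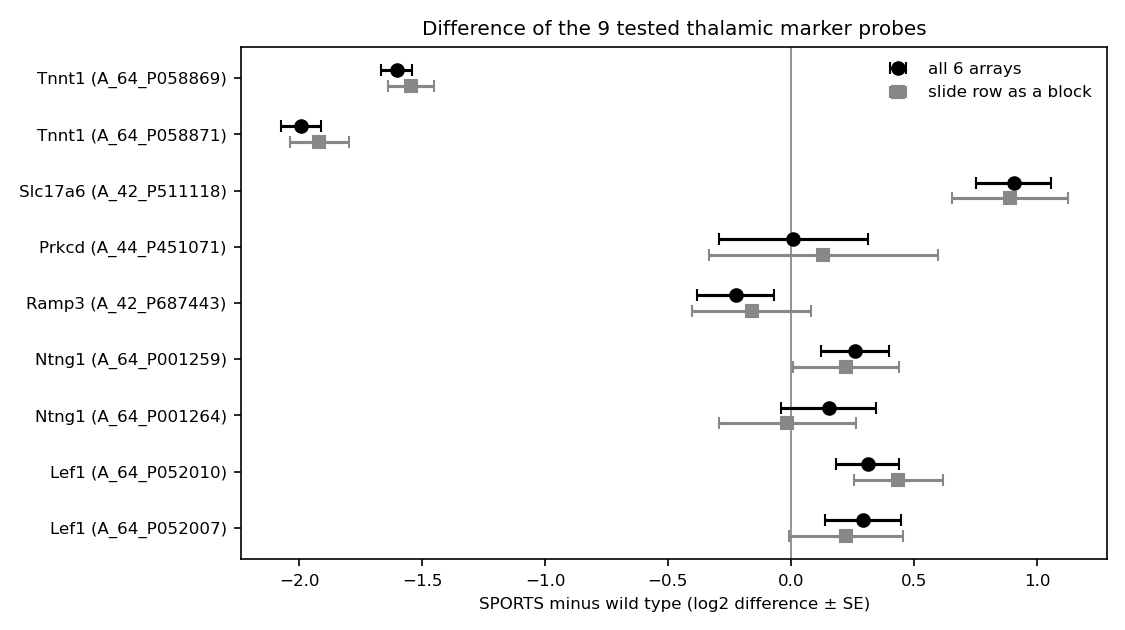
Difference SPORTS minus wild type with its SE for the 9 tested thalamic marker probes, from all 6 arrays (circles) and in the row-blocked fit (squares). Both Tnnt1 probes lie between -2.0 and -1.5 in both fits, and Slc17a6 keeps its size with a wider error.

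The marker genes other than Tnnt1 varied more among SPORTS rats than most probes did, a pattern seen after the values were examined. SPORTS replicate 1 was the lowest SPORTS array on 9 of 9 tested marker probes, against 26.4% of all tested probes. It was also lowest on the untested Gbx2 probe, which was not well above background there. SPORTS replicate 3 was the highest on 8 of the 9 tested marker probes, against 35.6% of all tested probes. In a list described below, SPORTS replicate 1 was also the lowest SPORTS array for 10 of 16 further thalamic genes. It was lowest for 9 of 11 striatal, 4 of 7 habenular, 4 of 8 hypothalamic and 3 of 6 midbrain and hindbrain genes. Wnt pathway genes had 1 of 13, relatives of the marker genes 3 of 12 and reticular genes 2 of 7. Cerebellar genes had 1 of 8 and cortical and hippocampal genes 0 of 6. Probes of 1 gene are not separate measurements of the tissue.

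From SPORTS replicate 1 to SPORTS replicate 3 the gap was 1.23 for Prkcd, 0.63 for Ramp3 and 0.24 for Slc17a6. For both probes of Ntng1 it was 0.52 and 0.57, and for those of Lef1 0.54 and 0.41. The median gap over all tested probes was -0.01. Only 0.271% of tested probes had a larger gap than Prkcd and 1.09% one larger than Ramp3. Tnnt1 was the exception, with gaps of 0.05 and 0.08, and its SPORTS SD of 0.04 was below the median SD of all tested probes, 0.06. Prkcd, Ramp3, Ntng1 and Lef1 had SPORTS SDs of 0.23 to 0.62. In wild type no array was lowest on more than 5 of the 10 marker probes.

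**Figure D3:**
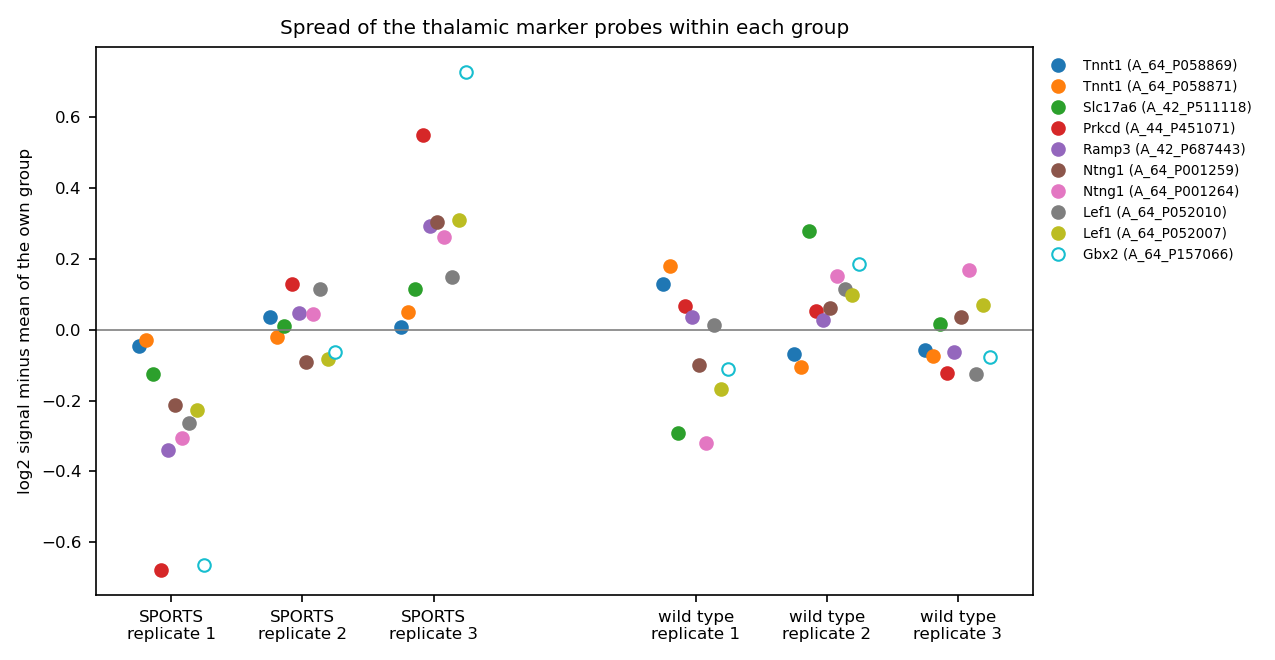
Log2 signal of each thalamic marker probe minus the mean of its own group, by array; points are probes, and the open point is the untested Gbx2 probe. SPORTS replicate 1 holds the lowest SPORTS value of every probe, and the Tnnt1 probes stay near 0 in SPORTS.

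Some cerebellar markers also set SPORTS replicate 1 apart. Pcp2, a Purkinje cell gene of the cerebellum, was at -0.51 in SPORTS replicate 1 and at -3.56 and -3.58 in SPORTS replicates 2 and 3, against -3.75 to -3.54 in wild type. The granule cell gene Gabra6 was well above background on SPORTS replicate 1 alone. Car8, Neurod1, Cbln3 and Itpr1 were also highest there among SPORTS arrays, but Itpr1 was still below every wild type array. Grid2ip was lowest in SPORTS replicate 1, at -4.89 against -4.79 and -4.49 in replicates 2 and 3. For Zic2 and Grm4 SPORTS replicate 1 lay between the other SPORTS arrays. Averaged over the 8 tested cerebellar genes, the log2 signal was -0.96 in SPORTS replicate 1, -1.76 and -1.67 in the other SPORTS arrays and -1.65 to -1.62 in wild type. The summed level of that list was 18.2 to 21.9 in SPORTS and 21.2 to 23.3 in wild type, of which Itpr1, also used outside the cerebellum, made up 69.7% to 75.6% in SPORTS and 76.6% to 79.8% in wild type. Of the 8 genes Grid2ip and Itpr1 fell, against 11.4% of all genes, and in the row-blocked fit Grid2ip kept its call and Itpr1 did not (limma adjusted p = 0.0415 and 0.126). Hypothalamic genes summed to 0.92 in SPORTS replicate 1, 2.51 and 6.38 in the other SPORTS arrays and 3.60 to 13.9 in wild type. Without Pmch, the melanin-concentrating hormone gene, those sums were 0.86, 0.89 and 1.20 in SPORTS replicates 1 to 3 and 2.24 to 5.84 in wild type, so the gap between SPORTS replicates 1 and 2 lay mostly in Pmch. How far the share of each region in the RNA moves the marker values was not tested. Without SPORTS replicate 1 the median difference of the marker genes was 0.36, and without SPORTS replicate 3 it was -0.08.

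Of 20 further genes of thalamic nuclei, chosen for comparison, 16 were tested. In this list 2 genes rose and 2 fell, against 24.3% of all genes called in either direction. The median difference was 0.04, and it was 0.10 without SPORTS replicate 1 and -0.04 without SPORTS replicate 3. Lhx9, a LIM homeobox gene, rose by 1.02 ± 0.18 (SE; limma adjusted p = 0.0141). The means of Lhx9 were -3.36 ± 0.20 in SPORTS and -4.38 ± 0.32 in wild type (SD, n = 3 each). The homeobox gene Shox2 rose by 0.53 ± 0.09, while its dimmer probe did not pass (0.39 ± 0.16, limma adjusted p = 0.151). The pyruvate dehydrogenase phosphatase gene Pdp1 fell by 0.35 ± 0.06 (SE) and Cbln2, which encodes a secreted synapse organiser, fell by 0.21 ± 0.05 (SE; limma adjusted p = 0.0154 and 0.0381). In the row-blocked fit none of the 4 passed by its brightest probe (limma adjusted p from 0.0790 to 0.263), while the dimmer Shox2 probe did, barely, at 0.71 (limma adjusted p = 0.0499999). Cacna1g, the T-type calcium channel gene used in thalamic burst firing, did not pass at -0.07 ± 0.05 (limma adjusted p = 0.419).

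Among partners and relatives of the marker genes, 2 of 12 tested genes rose and 3 fell, against 12.9% and 11.4% of all genes, with a median of -0.17 (-0.09 without the filter on dim probes). Tnnt2, the cardiac form of troponin T, rose by 0.84 ± 0.17 (SE; limma adjusted p = 0.0210), the opposite direction to Tnnt1. Its signals were 0.30, -0.05 and -0.33 in SPORTS, against -0.72, -0.85 and -1.04 in wild type, so that the groups did not overlap. Tnnc1, the troponin C gene shared by slow muscle and heart, fell by 0.44 ± 0.07 (limma adjusted p = 0.0109), while Tnni1 was not well above background on any array. In the row-blocked fit neither Tnnt2 nor Tnnc1 passed (limma adjusted p = 0.0780 and 0.0937).

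Of the relatives of Ramp3, Ramp1 fell by 0.51 ± 0.06 and Ramp2 rose by 0.36 ± 0.06 (SE; limma adjusted p = 0.00289 and 0.0117). In the row-blocked fit Ramp1 kept its call and Ramp2 did not (limma adjusted p = 0.0388 and 0.0961). The other probe of Ramp1 also fell by 0.54 ± 0.05. Prkcb, a relative of Prkcd, fell by 0.32 ± 0.05 (limma adjusted p = 0.00776) and lost its call in that fit (limma adjusted p = 0.0702). Of the netrin-G ligand genes, Lrrc4c, whose protein binds netrin-G1, did not pass at -0.09 ± 0.06 (limma adjusted p = 0.343). The probes of Lrrc4 disagreed, the brighter at -0.05 ± 0.04 and the dimmer at 0.65 ± 0.05 (limma adjusted p = 0.445 and 0.00121).

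Of 13 tested genes of the Wnt pathway and of TCF and LEF partners, none rose and 4 fell, against 12.9% and 11.4% of all genes, with a median of -0.08. Axin2, a common target of beta-catenin signalling, fell by 0.30 ± 0.04 (SE; limma adjusted p = 0.00562). Apc and Gsk3b, of the complex that degrades beta-catenin, fell by 0.21 ± 0.05 and 0.17 ± 0.04, and the corepressor gene Tle4 fell by 0.33 ± 0.08 (limma adjusted p = 0.0401, 0.0251 and 0.0401). None of the 4 kept its call in the row-blocked fit (limma adjusted p from 0.0620 to 0.284). Ctnnb1, the gene of beta-catenin itself, did not pass at -0.05 ± 0.04 (limma adjusted p = 0.418).

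Neighbouring cell groups of the thalamus were read beside the marker genes. Of 7 tested genes of the reticular nucleus and inhibitory neurons 1 rose and 2 fell, against 12.9% and 11.4% of all genes. The median was -0.10, and between -0.169 and -0.061 over the alternatives, with summed levels of 37.8 to 41.7 in SPORTS and 38.7 to 45.8 in wild type. Spp1, the osteopontin gene, rose by 2.80 ± 0.41 (SE), and Ecel1 and Six3 fell by 0.71 ± 0.11 and 1.28 ± 0.19 (limma adjusted p = 0.00755, 0.00996 and 0.00755). Six3 was well above background on 1 of 3 SPORTS arrays. Pvalb and Gad1 did not pass (0.07 ± 0.12 and -0.10 ± 0.07). None of these 3 calls was kept in the row-blocked fit (limma adjusted p from 0.0738 to 0.0938).

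Of 7 tested habenular genes 3 rose and 1 fell, against 12.9% and 11.4% of all genes. The median of 0.22 depended on single arrays, being 0.65 without SPORTS replicate 1 and -0.035 without SPORTS replicate 3, and it was 0.50 without the filter on dim probes or with the filter on all arrays. The homeobox genes Irx1 and Irx2 rose by 1.38 ± 0.23 and 1.84 ± 0.30, the serotonin receptor gene Htr5b rose by 0.79 ± 0.16, and the neurokinin B gene Tac3 fell by 0.65 ± 0.14 (SE; limma adjusted p = 0.0116, 0.0106, 0.0205 and 0.0284). The other tested probe of Irx2 did not pass (limma adjusted p = 0.502). Summed levels were 2.61 to 3.39 in SPORTS and 3.29 to 3.46 in wild type, but without Tac3, the brightest gene, they were 1.33 to 1.49 in SPORTS and 0.81 to 1.01 in wild type. Irx1 and Irx2 are also active in midbrain and hindbrain, and none of the 4 passed in the row-blocked fit (limma adjusted p from 0.102 to 0.186).

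Striatal markers, given beside the fall of Tnnt1, had summed levels of 11.7 to 13.3 in SPORTS and 33.8 to 39.3 in wild type. All 11 tested striatal genes fell, against 11.4% of all genes, with a median of -1.86. All 11 were also called lower in the row-blocked fit, where 8.34% of all genes were called in either direction. Drd1, of this list, was well above background on 1 of 3 SPORTS arrays and was tested through wild type. Their part in the Tnnt1 result was not tested. Cortical and hippocampal genes had a median of -0.16, with 2 of 6, Tbr1 and Lamp5, lower and none higher, against 11.4% and 12.9% of all genes. Neither kept its call in the row-blocked fit (limma adjusted p = 0.259 and 0.0522). Their summed levels were 4.24 to 4.56 in SPORTS and 4.79 to 5.18 in wild type.

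**Figure D4:**
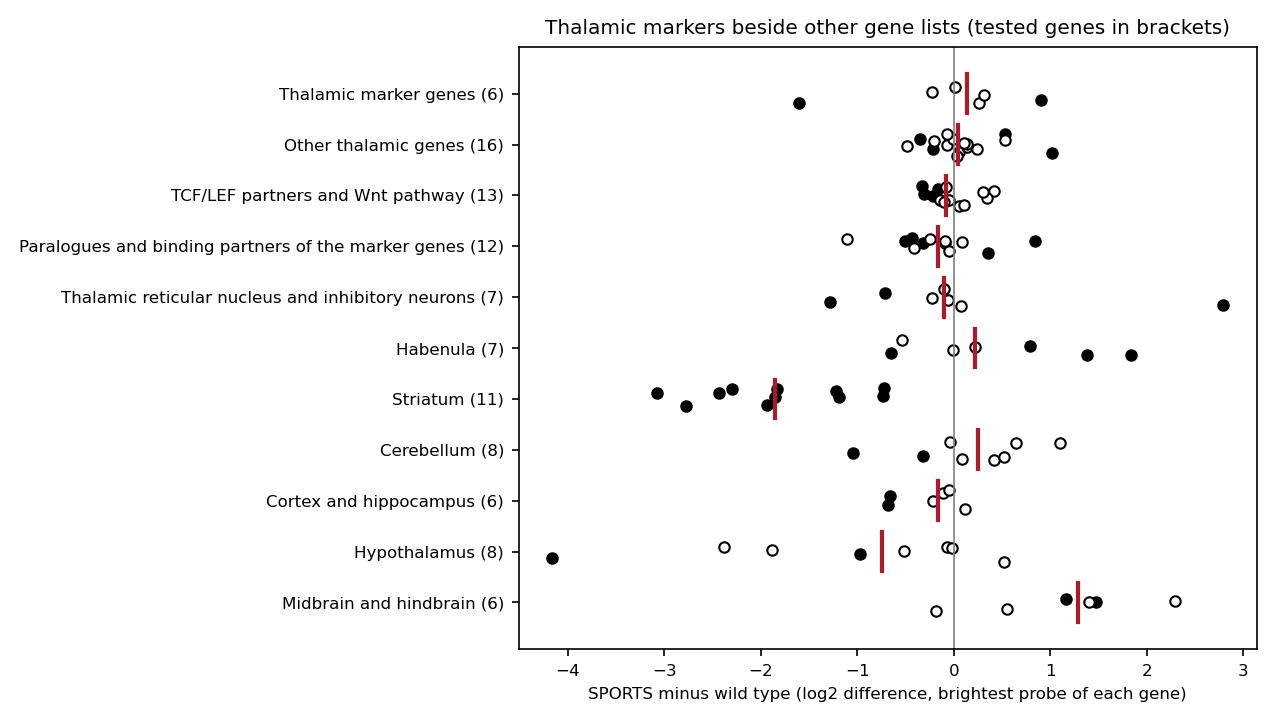
Difference SPORTS minus wild type of each tested gene, by its brightest probe, in the thalamic markers and 10 other lists; filled points passed at an adjusted p of 0.05 and red bars are list medians. The thalamic lists centre near 0, the striatal list lies wholly below 0, and Tnnt1 is the lowest point of the thalamic markers.

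The genes whose profile over the 6 arrays was most like that of the brighter Tnnt1 probe were Herc3, Gria1 and Rpl13, with Pearson correlations of 0.9994, 0.9994 and 0.9993. For the dimmer Tnnt1 probe they were Herc3, Ubxn11 and Tmem158, at 0.9992, 0.9992 and 0.9987. For Slc17a6 they were Rcn2, Nkx6-1 and Tppp3, at 0.9985, 0.9977 and 0.9962. These are the highest among the tested genes, leaving out the marker genes and symbols that start with LOC or RGD. The 6 arrays fall into 2 groups, so the values mostly carry the difference between the groups. Herc3 and Gria1 fell by 0.62 and 0.61, whereas Nkx6-1, a homeobox gene, rose by 1.77 (limma adjusted p = 0.000355, 0.000490 and 0.00902).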

How the data were processed

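Per the labels, total brain RNA of 3 SPORTS and 3 wild type rats was labelled with Cy3 and hybridised to 1 array per rat. The intensity values came from Feature Extraction by Agilent (10.10.1.1, per the submitters' processing notes), with local background removed and spatial trends corrected inside an array only, per the file headers. A series-wide table from the authors repeats these intensities, each array scaled by a constant of 1.38 to 1.47. It has 0 columns from elsewhere. The array design names build rn4 and no probe sequence was used, so no probe position is given.

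Of 62976 spots 58717 were not controls. Outlier spots (3075 values) were dropped, spots of a probe were averaged as log2 processed signal, and the 75th percentile over spots was subtracted. A probe counted as well above background on an array if more than 0.5 of its spots were. Symbols came from matching transcript accessions to RefSeq genes (18005 of 30367 probes). A gene was represented by its brightest tested probe. Group differences were tested in limma 3.58.1 (R 4.3.3), two-sided, with adjustment over 20658 probes and a threshold of 0.05. The procedure was tested on simulated data. Alternatives covered normalisation, normexp with offset 50, the deposited table, the dim-probe filter, outlier spots, variance model, slide row, a 2-fold threshold, the probe rule and leaving out each array.

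All 9 marker genes and every probe of them are named, then up to 6 called genes per companion list and 3 like genes per called probe. The members and lists were chosen with earlier results of these data known. Genes without a call and the probes of Lrrc4 were picked for mention after their values were seen.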

Additional observations from a re-analysis of the deposited data

How the results depend on the processing

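The count of all probes called, 4364, was 2342 without the filter on dim probes, 1597 in the row-blocked fit, 1147 within row 2 (1 wild type array, assumed to vary like the SPORTS arrays) and 349 at the 2-fold threshold. Leaving out 1 array gave 2298 to 3183, with a change of over 1.5 times without SPORTS replicate 1, 2 or 3 (2827, 2298 and 2628) or wild type replicate 3 (2908). The count of marker probes called, 3, was 2 to 4 over all alternatives, and both Tnnt1 probes were called in each of them, with differences of -1.64 to -1.50 and -2.04 to -1.67. Slc17a6 ran from 0.76 to 1.04 (limma adjusted p from 0.00461 to 0.0964) and was not called in the row-blocked fit or without SPORTS replicate 2. It also did not reach 2-fold. The median over marker genes ran from -0.078 to 0.358 when 1 array was left out (without SPORTS replicate 3 and replicate 1). The sign of Prkcd turned with a median shift (-0.022) and, as an alternative added after seeing the data, with the percentile taken over probes (-0.005), and leaving out 1 array gave -0.265 to 0.35. The dimmer Ntng1 probe turned to -0.015 in the row-blocked fit, whose difference is by design the same as that within row 2. It ran from -0.008 to 0.31 with 1 array left out. The authors' scaling of the deposited table, also added later, left all marker calls as they were. No paired analysis was possible because the numbers in the sample titles are shared by only 1 SPORTS and 1 wild type rat. Dim probes, such as that of Gbx2, are limited by background, and 3 arrays a group limit all values.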
